A study of Sminthopsis crassicaudata with 9 samples.

Results

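In the face of the newborn fat-tailed dunnart (Sminthopsis crassicaudata), a small carnivorous marsupial, 1543 regions within 3 kb of a transcription start site (TSS) carried the histone mark H3K27ac and shared no base with the mark H3K4me3. They were chosen by the called intervals of both marks, as H3K27ac peaks of replicate 1 at q under 0.05 that shared at least 50% of either length with a peak of replicate 2 and touched no H3K4me3 peak of either replicate. Of 148724 reproducible H3K27ac peaks in all, 33201 touched no H3K4me3 (22.3%), and of the 20457 that lay within 3 kb of a TSS, 1543 did (7.54%). These 1543 peaks lay nearest to the TSS of 1410 of 21703 gene models (6.5%). They fell into 801 peaks at 705 genes that had no H3K4me3 peak within 500 bases of the TSS, and 742 peaks at another 705 genes that had a separate H3K4me3 peak there. The equal gene numbers arose by coincidence, since no step fixed them. All of these values follow from the rule that chose the peaks and are given as a description.

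H3K27ac is an acetyl group on a lysine of histone H3 that marks active enhancers and active promoters alike. H3K4me3, trimethylation of another lysine on the same histone tail, concentrates around the start sites of genes that are transcribed or poised, and is low at most enhancers. A region close to a gene start with the first mark and without the second can therefore be an enhancer near its gene, the acetylated flank of a promoter, or a start site whose H3K4me3 was not called. Peak lists hold intervals and not molecules, and do not tell these apart.

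The study profiled both marks by ChIP-seq in craniofacial tissue of young less than 24 hours old, with 2 replicates of each mark and of the input. A ChIP replicate was a pool of 26 or of 27 heads by the sample labels, and each mark was called against the input of its own pool. RNA was sequenced from 3 libraries of the face at birth, each a pool of 2 young. All samples were of the same tissue and stage with no treatment named, so no condition was compared with another.

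The deposited lists held 200070 and 200992 H3K27ac peaks and 156428 and 158331 H3K4me3 peaks in replicates 1 and 2, and the RNA libraries held between 16096971 and 17419099 counts in genes. The tissue was checked against 39 markers of tissues in or near the face, of which 34 were annotated and 29 were over 1 TPM, a length-scaled share of the library's transcripts, in every library. The muscle gene TNNT3 averaged 6074 TPM and the basal epidermal keratin KRT14 averaged 4392 TPM, so muscle and skin were well represented in the dissected face. The retinal factor RAX, at 0 TPM, and the white blood cell antigen PTPRC, at 0.713 TPM, were under that limit, while the white blood cell markers SPI1 and CSF1R averaged 4.55 and 5.70 TPM. In tissue of several cell types, fewer cells of a type and less RNA or less acetylation per cell cannot be told apart.

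H3K27ac-only peaks near gene starts were weak and short, whether or not the gene start itself carried H3K4me3. Fold enrichment over input, the ratio of ChIP to input signal at the summit, had a median of 3.89 in replicate 1 and 4.03 in replicate 2 for peaks at genes without H3K4me3 at the TSS. At genes with H3K4me3 the medians were 3.89 and 4.12. Fold enrichment takes repeated values in these lists, with 51 of the 1543 peaks at the same value of 4.31 in replicate 1, so that equal medians can occur. The 31658 H3K27ac-only peaks farther than 3 kb from any TSS had medians of 3.87 and 4.03. Near and far H3K27ac-only peaks thus lay within the same narrow range, while the 18914 near peaks that shared bases with H3K4me3 had medians of 12.3 and 12.9. Median length was 445 bases without and 433.5 bases with H3K4me3 at the TSS, against 424 bases for the far peaks and 1875 bases for the near peaks that shared bases with H3K4me3. A long peak is more likely to touch H3K4me3, so the rule itself sorts long peaks into the last set, and the differences from it are a description.

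**Figure D1:**
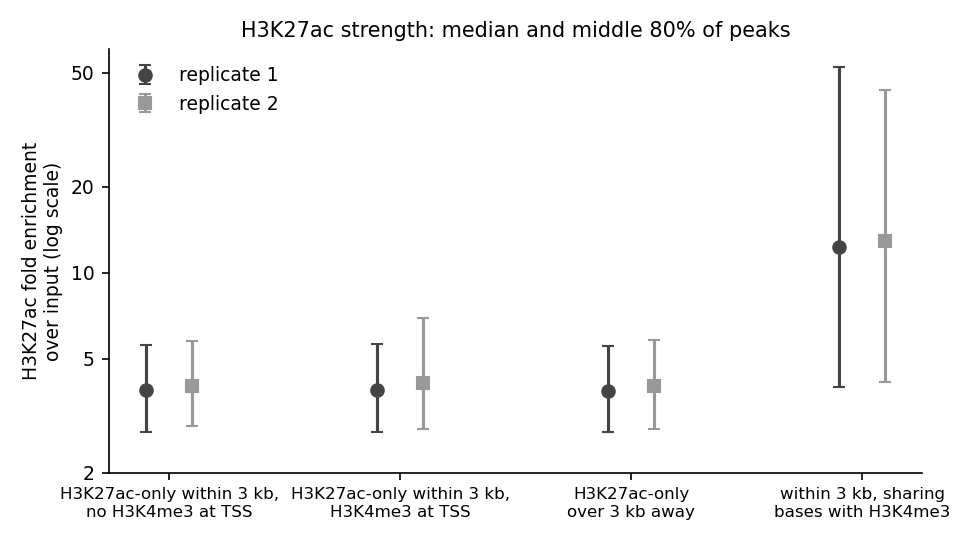
H3K27ac fold enrichment over input (log scale) in both replicates for 4 sets of reproducible peaks; points are medians and bars leave out the lowest 10% and the highest 10% of peaks. The first 3 sets, with no shared H3K4me3, have medians between 3.87 and 4.12, and the near peaks that share bases with H3K4me3 have medians of 12.3 and 12.9.

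The order of the peaks by strength was poorly repeated between the pools. Across peaks, Spearman's rank correlation of fold enrichment between replicates was 0.163 without and 0.192 with H3K4me3 at the TSS, against 0.896 for near peaks that shared bases with H3K4me3. These are descriptions over 801, 742 and 18914 peaks that share the same libraries, and peaks are not replicates. The narrow range of the H3K27ac-only peaks and the wide range of the others go with these values, and the part of range in the difference was not tested. In replicate 1, 115 of the 1543 peaks (7.45%) were under 2 on the -log10 q scale, close to the limit. The value of a single peak is therefore known only to within the difference between its 2 replicates, both of which are given for the peaks described in full.

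In 123 cases (7.97%) the partner in replicate 2 was a wider peak that did share bases with H3K4me3. These were 18 of the 801 peaks at genes without H3K4me3 at the TSS (2.25%) and 105 of the 742 at genes with it (14.2%). Their partners had a median length of 2356 bases and a median fold enrichment of 7.17, up to 70.9 at CDC42, while the other 1420 partners had medians of 457 bases and 4.03 and reached 10.5 at most. For these peaks the replicate 2 value is that of a wider region in which both marks overlap, and not of the H3K27ac-only interval alone. The strongest named peaks are given below with and without these partners.

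The 2 groups lay in different places around the gene start. Of the peaks at genes without H3K4me3 at the TSS, 195 (24.3%) covered the TSS base, and the median distance from peak edge to TSS was 599 bases. Of the peaks at genes with H3K4me3, 4 (0.539%) did, and the median distance was 1954.5 bases. The second group had little room at the TSS because the rule kept it clear of the H3K4me3 peak there, so the difference in distance is partly built in. Within 1 kb of the TSS lay 478 peaks without H3K4me3 at the TSS (59.7%) and 88 with it (11.9%).

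The side of the TSS also differed. Summits lay downstream, in the direction of transcription, for 504 of 801 peaks without H3K4me3 at the TSS (62.9%) and for 264 of 742 with it (35.6%). The fullest 500-base bin of the first group was the one just downstream of the TSS, with 215 peaks (26.8%), and the bin just upstream held 86. In the second group the same 2 bins held 1 and 11 peaks, and the fullest was the outermost upstream one, from 2500 to 3000 bases, with 115. By gene model, 290 peaks without H3K4me3 at the TSS had their summit in an exon, 179 in an intron, 295 upstream and 37 beyond the gene's end, against 45, 189, 478 and 30 with it. Summits in exons were thus 36.2% of the first group and 6.06% of the second.

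**Figure D2:**
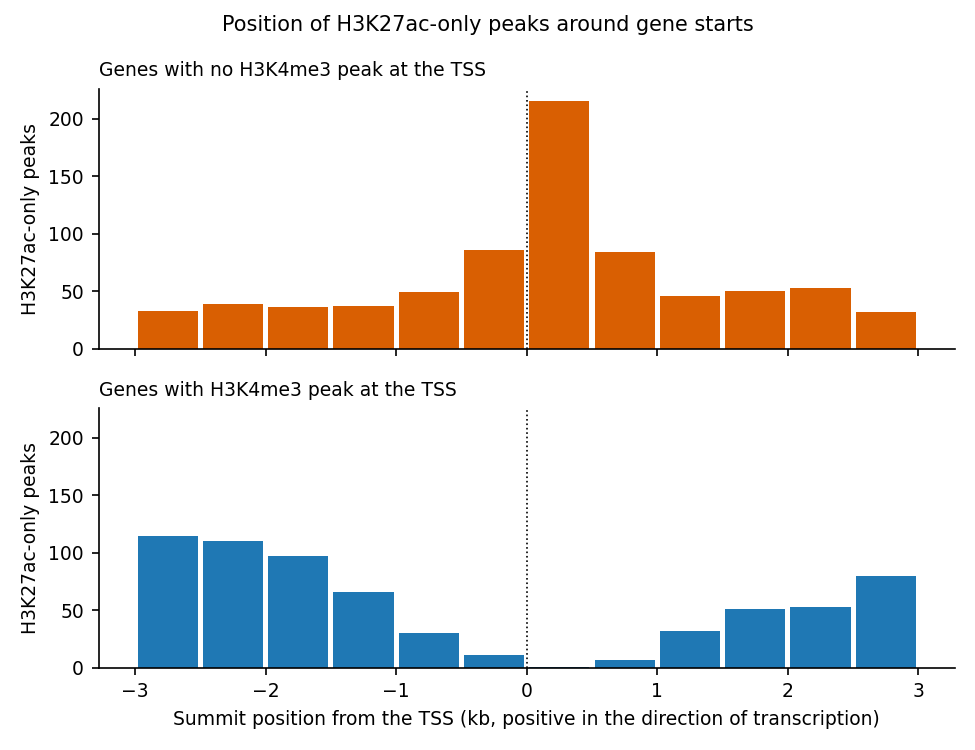
Number of H3K27ac-only peaks by summit position from the TSS in bins of 500 bases, for genes with no H3K4me3 peak at the TSS (above) and with one (below). The upper group is fullest just downstream of the TSS, with 215 peaks, and the lower group is nearly empty there, with 1, and fullest at the outer upstream edge, with 115.

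H3K4me3 at the TSS reached a median of 522 bases upstream and 1174 bases into the 705 genes that had it and an H3K27ac-only peak nearby. The counts were also set against the bases free of H3K4me3 within 3 kb of each start and nearest to it. At genes without H3K4me3 at the TSS there were 26.5 peaks per free Mb downstream and 15.6 upstream. At genes with H3K4me3 there were 12.9 downstream and 18.3 upstream. The first group kept its excess downstream and the second its excess upstream on this scale, and the second excess was smaller than by the raw counts of 224 downstream and 429 upstream.

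Peaks at genes with H3K4me3 lay close to it, as the split requires, since both the H3K4me3 peak and the H3K27ac-only peak had to be near the TSS. The contrast between the groups is therefore built in and is given as a description. The space to the nearest H3K4me3 peak had a median of 5080 bases without H3K4me3 at the TSS, with a range of 12 to 142351, and a median of 776.5 bases with it, with a range of 3 to 3209. It was at most 1 kb for 94 of 801 (11.7%) in the first group and for 461 of 742 (62.1%) in the second, of which 199 (26.8% of 742) lay within 500 bases and 10 (1.35%) within 100 bases. Space to the nearest H3K27ac peak that shared bases with H3K4me3 had a median of 6363 bases without H3K4me3 at the TSS and 787.5 bases with it. The smallest space between any 2 H3K27ac peaks of replicate 1 was 271 bases, so a peak nearer to an acetylated promoter than that would have been joined to it in the lists.

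**Figure D3:**
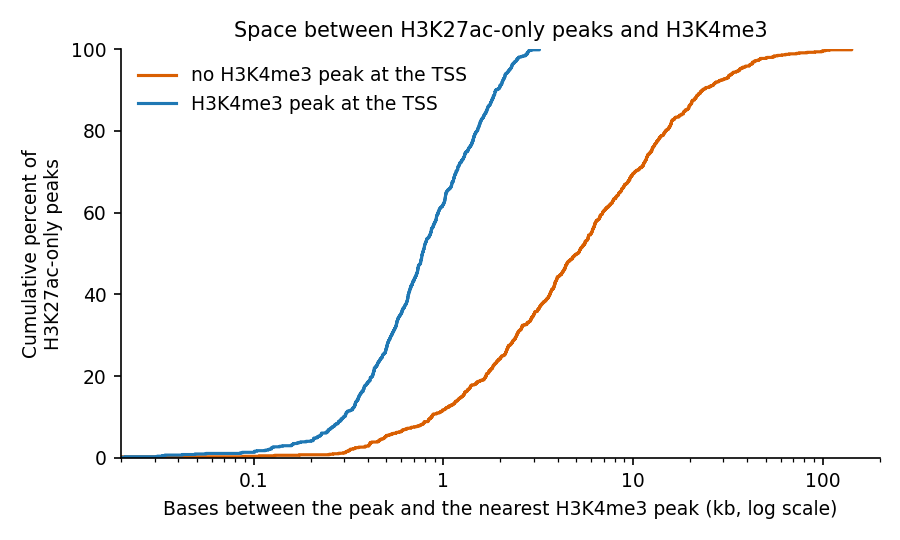
Cumulative percent of H3K27ac-only peaks by the number of bases to the nearest H3K4me3 peak (kb, log scale; the axis starts at 0.02 kb), for genes with no H3K4me3 peak at the TSS and with one. At 1 kb the curves stand at 11.7% and 62.1%, and the medians are 5080 and 776.5 bases.

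An H3K4me3 peak was often not far even where the gene start had none. Of the 801 peaks, 281 (35.1%) had H3K4me3 within 3 kb, in 22 cases with a fold enrichment over 20. TRIB3, which encodes a stress-induced pseudokinase, lay just outside that distance. Its H3K27ac-only peak covered the start and had fold enrichments of 8.12 and 9.66 in replicates 1 and 2, while an H3K4me3 peak with values of 49.1 and 58.5 began 3262 bases from the start, along the gene. The gene models, and so the start sites, were carried over from the Tasmanian devil, and their part in such cases was not tested. At 255 of the 801 peaks (31.8%) the nearest H3K4me3 peak was over 10 kb from the TSS.

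H3K4me3 at the start of genes with a nearby H3K27ac-only peak was weaker and shorter than at other genes. For the 705 genes the strongest H3K4me3 peak at the TSS, of either replicate, had a median fold enrichment of 23.2. The median was 47.0 for the 14576 genes with H3K4me3 at the TSS and no H3K27ac-only peak nearby. Over the genes with a peak in the replicate concerned, the first had medians of 24.7 and 28.4 in replicates 1 and 2. The second had 38.9 and 45.7. H3K4me3 at the TSS was called in both replicates at 84.5% of the first and 93.9% of the second. Its median length was 1772 against 2453.5 bases, which leaves more room for separate peaks near the first. Of all 21703 genes, 70.4% had H3K4me3 at the TSS.

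The side of the H3K27ac-only peak went with the strength of H3K4me3. At the 467 genes with an upstream peak, H3K4me3 had medians of 35.8 and 40.0 in replicates 1 and 2. At the 256 genes with a downstream peak the medians were 5.76 and 6.06. Each was taken over the genes with H3K4me3 called in that replicate. It was called in both replicates at 88.0% of the first and 77.7% of the second. H3K4me3 reached a median of 1437 bases into the gene at the first and 699.5 bases at the second. A short, weak H3K4me3 peak leaves free bases downstream within 3 kb, and the part of this in the values was not tested.

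RNA was not used to choose the peaks. A gene counted as expressed over 1 TPM in all 3 libraries, which held for 56.5% of all genes. At genes without H3K4me3 at the TSS, 151 of 705 with an H3K27ac-only peak were expressed (21.4%), against 20.4% of the 5715 with none. By library the share over 1 TPM was 23.8%, 26.8% and 24.4% with the peak and 22.3%, 24.0% and 22.1% without it, in FP1, FP2 and FP3. The share was thus higher with the peak in 3 of 3 libraries. Each difference was smaller than the range between libraries of the share with the peak, but not always smaller than the range without it. Both sets lay far under the share over all genes. Libraries are the only replicates here, and an exact paired permutation test over 3 cannot go below p = 0.25, so no test was made.

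Among genes without H3K4me3 at the TSS, a smaller share had no RNA at all where an H3K27ac-only peak was near. Not a single count was found over the 3 libraries for 291 of 705 genes with the peak (41.3%). The share was 54.7% for those without the peak and 22.5% over all genes. At genes with H3K4me3 at the TSS the order was reversed, at 11.5% with the peak and 9.54% without it. For genes without H3K4me3, the gene models differ too. Single-exon models were 17.3% with the peak and 28.4% without it, and models with a gene symbol were 43.1% and 31.7%. The part of the models in the difference was not tested. Among symbol genes alone, not a single count was found for 19.7% of 304 with the peak and for 21.4% of 1812 without it. Expressed were 37.2% of the first and 44.0% of the second, so for the share expressed the direction turned.

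Where the peak covered the TSS itself, the share was somewhat higher. Of 195 such genes without H3K4me3, 51 were expressed (26.2%), against 100 of 510 (19.6%) where the peak lay to the side. In the libraries the shares over 1 TPM were 28.7%, 33.3% and 28.7% for the first and 22.0%, 24.3% and 22.7% for the second, without overlap. These genes also had fewer single-exon models, 9.74% against 20.2%, and more symbols, 59.0% against 37.1%, whose part was not tested. By the distance of the nearest H3K4me3 peak from the TSS, 28.0% of 218 genes were expressed at 500 to 3000 bases, 22.9% of 253 at 3000 to 10000 bases and 13.7% of 234 beyond.

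At genes with H3K4me3 at the TSS, an H3K27ac-only peak nearby went with less RNA. Expressed were 453 of 705 genes with the peak (64.3%), against 72.0% of 14567 without it. Median TPM was 6.92, 8.63 and 6.42 in the libraries with the peak and 9.80, 12.9 and 9.51 without it, so that the peak's genes were lower in 3 of 3 libraries. The lower values stood at the genes with a downstream peak. Genes with an upstream peak had a median of 11.9 TPM, with 71.1% expressed, and genes with a downstream peak had a median of 1.86 TPM, with 50.4% expressed. These are the same genes at which H3K4me3 was strong and weak, and the part of H3K4me3 strength in the RNA values was not tested.

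RNA differed only in part with the strength of the H3K27ac-only peak. In the highest and the lowest quartile of replicate 1 fold enrichment, 27.5% and 18.9% of peaks without H3K4me3 at the TSS stood at an expressed gene, and 64.0% and 62.9% of peaks with it. By replicate 2 the shares were 25.5% and 15.9% without H3K4me3 at the TSS, and 66.1% and 58.6% with it. The 123 peaks with such partners are included here, and in replicate 2 they reach into the highest quartile. That quartile was above the lowest in each case, and the quartiles between did not always keep the order.

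**Figure D4:**
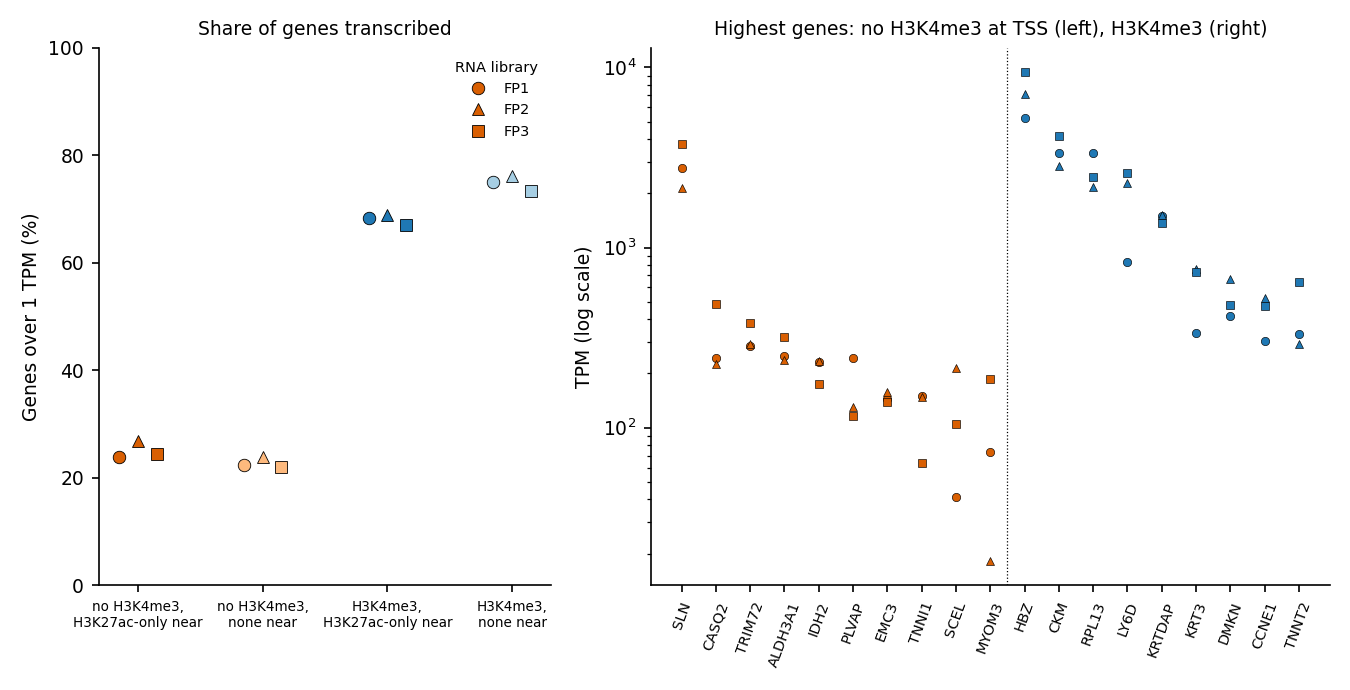
Left, percent of genes over 1 TPM in each RNA library (FP1 to FP3) for genes with and without H3K4me3 at the TSS, each with and without an H3K27ac-only peak within 3 kb. Right, TPM (log scale) in each library of genes among the 10 of highest mean TPM with an H3K27ac-only peak, without H3K4me3 at the TSS (left of the dotted line) and with it (right); shares lie between 22.1% and 26.8% in the first 2 sets and between 67.1% and 76.1% in the others.

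Of the 10 symbol genes of highest TPM without H3K4me3 at the TSS, SLN led. SLN, which encodes sarcolipin, an inhibitor of the calcium pump of muscle, had 2747, 2135 and 3742 TPM in FP1, FP2 and FP3. Its H3K27ac-only peak lay 2919 bases upstream of the start on scaffold 5 (2426735 to 2427105 of the study's own dunnart assembly, as are all coordinates here), with fold enrichments of 3.09 and 3.79. The nearest H3K4me3 peak was 9821 bases from the start. The annotated start of SLN itself thus carried no H3K4me3 peak and no reproducible H3K27ac-only peak.

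Further muscle genes were among the 10. CASQ2, the calcium store protein calsequestrin, had 244, 226 and 486 TPM, and its peak, on scaffold 126 (349032 to 349364), covered the start with fold enrichments of 2.89 and 5.69. The nearest H3K4me3 peak was 18959 bases from the CASQ2 start. TRIM72, a membrane repair protein of muscle, had 284, 290 and 379 TPM, and a peak on the start with 2.97 and 7.30. The TRIM72 partner in replicate 2 was 2252 bases long and shared bases with H3K4me3, so TRIM72 meets the rule through its narrower replicate 1 peak alone. TNNI1, the troponin I of slow muscle fibres, had 151, 149 and 63.3 TPM, and its peak of 1099 bases lay 1025 bases into the gene, with 6.46 and 4.30.

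MYOM3, a protein of the M-band that holds thick filaments together, had 2 H3K27ac-only peaks. The first, on scaffold 10 (30985132 to 30985849), covered the start with 6.29 and 6.64, and the second, 2302 bases downstream, had 4.59 and 5.01. Its RNA varied most among these genes, at 73.5, 18.2 and 186 TPM in FP1, FP2 and FP3. An H3K4me3 peak of 5.36 in replicate 1 lay 2446 bases upstream, within a wide acetylated region.

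SCEL and ALDH3A1 are genes of epithelia, as is TP63, which was named through the epidermal list and not by its TPM. SCEL, the cornified envelope precursor sciellin, had 41.2, 215 and 105 TPM, with a peak 176 bases upstream of the start on scaffold 52 (4629257 to 4629583; 3.90 and 4.61) and the nearest H3K4me3 61427 bases away. ALDH3A1, an aldehyde dehydrogenase of surface epithelia, had 249, 238 and 317 TPM and a peak 626 bases upstream, with 4.14 and 6.35. TP63, the master regulator of stratified epithelium, had 28.2, 70.2 and 73.3 TPM. The annotated start of TP63 had its H3K27ac-only peak 855 bases upstream on scaffold 29 (33883760 to 33884204; 3.08 and 4.11) and H3K4me3 784 bases away. TP63 is known in human and mouse to start at alternative promoters, and the start used here is the outermost end of the model.

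PLVAP, a protein of the diaphragms of fenestrated endothelium, had 243, 130 and 117 TPM, and its peak lay 2041 bases upstream with 5.98 and 4.70. IDH2 and EMC3, genes of general cell function, were among the 10 as well. IDH2, a mitochondrial isocitrate dehydrogenase, had 232, 234 and 176 TPM, with a peak 1138 bases upstream of 3.44 and 3.36. EMC3, a subunit of the membrane protein insertion complex of the endoplasmic reticulum, had 144, 158 and 139 TPM, and the H3K4me3 peak nearest to its H3K27ac-only peak, 6351 bases off, had 78.02.

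The strongest peaks of symbol genes without H3K4me3 at the TSS mostly lay on the start itself, at genes whose mean RNA ranged from 0.0311 TPM (BFSP1) to 92.6 TPM (MYOM3). Among genes with a symbol, TRIB3 led by mean fold enrichment of both replicates (8.89), and its RNA was 5.65, 5.69 and 14.0 TPM. GPR182, a receptor of endothelial cells, followed with 6.41 and 9.92 on its start and 2.71, 2.87 and 3.61 TPM. DIRAS2, a small GTPase of the Ras family, had 9.53 and 5.85 at 170 bases into the gene and 0.426, 1.86 and 1.04 TPM. All 3 genes averaged under 10 TPM.

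The others of the 10 had mean fold enrichments of 6.46 to 6.96. AQP7, a channel for water and glycerol, had 8.31 and 5.06 on its start and 26.1, 25.4 and 30.5 TPM, with the nearest H3K4me3 23895 bases away. TMPRSS13, a membrane serine protease of the epidermis, had 5.98 and 6.95 on its start and 17.0, 27.9 and 18.1 TPM. BFSP1, a filament protein of the eye lens, had 4.64 and 8.79 on its start and 0.0932 TPM in FP1 with no count in FP2 and FP3. C2H19orf12, TNFSF13 (the cytokine APRIL), C2H16orf78 and MYOM3 completed them, and 8 of the 10 peaks overlapped the start. Leaving out partners that shared bases with H3K4me3 left these same 10 in place, since none of them had such a partner.

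**Figure D5:**
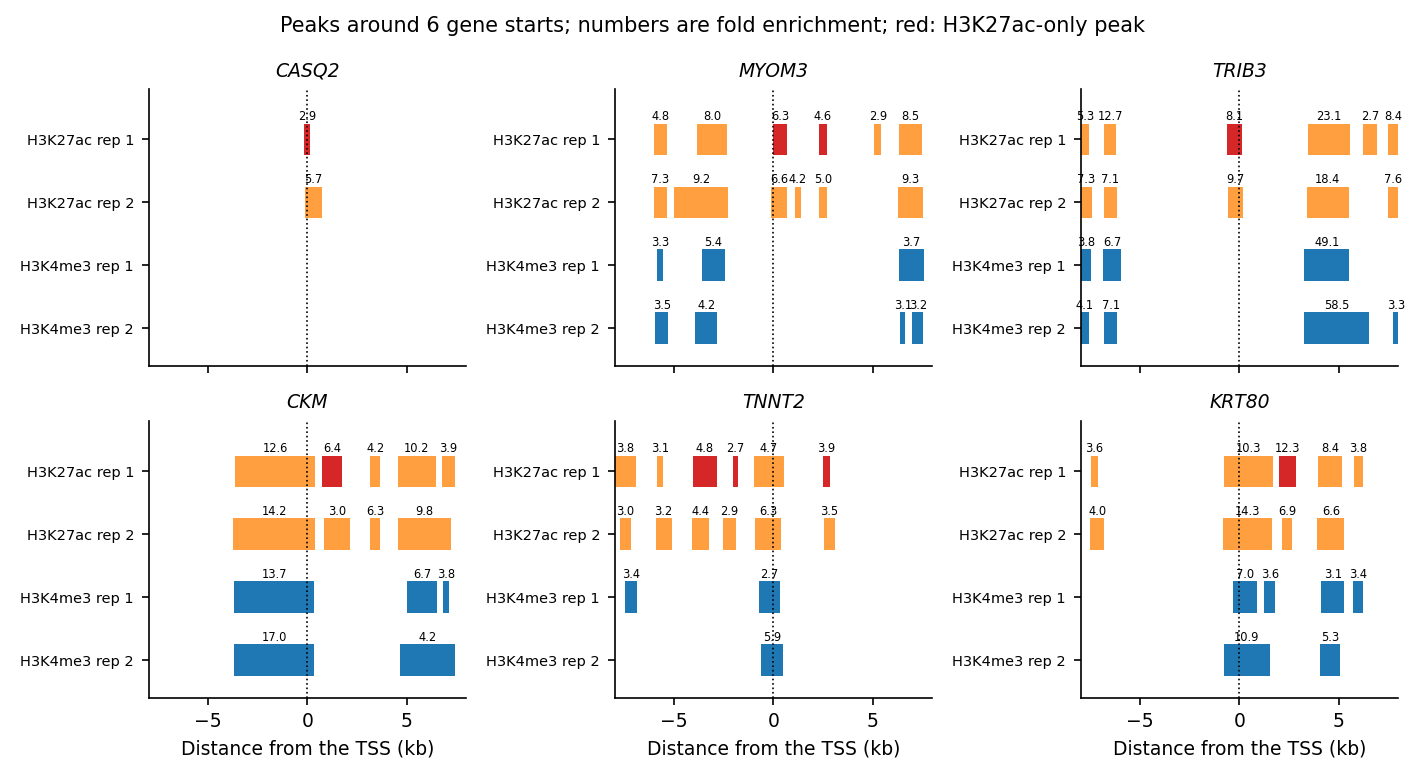
Peaks of both marks in both replicates within 8 kb of the TSS (0 kb, positive along the gene) for 3 genes without H3K4me3 at the TSS (CASQ2, MYOM3, TRIB3; above) and 3 with it (CKM, TNNT2, KRT80; below); numbers are fold enrichment and red bars are H3K27ac-only peaks. In the upper row a red peak overlaps each start with no H3K4me3 under it, and MYOM3 has another red peak downstream. In the lower row an H3K4me3 peak covers each start. Red peaks lie on both sides of it for TNNT2, and downstream alone for CKM and KRT80.

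At symbol genes with H3K4me3 at the TSS, HBZ had the most RNA, with a weak H3K4me3 peak. HBZ, the embryonic globin zeta, had 5260, 7096 and 9401 TPM, and H3K4me3 of 2.79 and 3.35 at its start. Its H3K27ac-only peak, on scaffold 2 (261995803 to 261996711), lay 515 bases into the gene with 4.71 and 4.97. CKM, the creatine kinase of muscle, had 3327, 2823 and 4161 TPM and stronger H3K4me3, 13.7 and 17.0 over 4026 bases. The CKM H3K27ac-only peak of 6.36 and 3.02 lay in an intron 743 bases from the start on scaffold 121 (666141 to 667168).

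TNNT2, a troponin T of heart and embryonic skeletal muscle, had the largest number of H3K27ac-only peaks in this group, 3, at 2862 and 1762 bases upstream and 2523 bases downstream. Their fold enrichments were 4.77 and 4.45, 2.68 and 2.95, and 3.93 and 3.48 in replicates 1 and 2. RNA was 332, 292 and 644 TPM, and H3K4me3 at the start was 2.75 and 5.91. TNNT2 was thus flanked on both sides of a weakly marked start.

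LY6D, KRTDAP, KRT3 and DMKN, genes of surface epithelia, had H3K4me3 under 10 in both replicates. LY6D, a surface protein of keratinocytes, had 836, 2270 and 2588 TPM with H3K4me3 of 5.84 and 7.50, and KRTDAP, a secreted protein of differentiating keratinocytes, had 1494, 1514 and 1370 TPM with 4.23 and 6.39. KRT3, a keratin of the cornea in human, had 335, 761 and 728 TPM with 5.55 and 4.14, and DMKN, dermokine, had 416, 672 and 482 TPM with 4.72 and 2.77. Their H3K27ac-only peaks lay 1697 to 2747 bases from the start, and that of DMKN (2.07 and 2.69) was among the weakest. LY6D, KRT3 and DMKN were lowest in FP1, and KRTDAP in FP3.

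RPL13, a protein of the large ribosomal subunit, had H3K4me3 above the median of genes without an H3K27ac-only peak nearby, and CCNE1 was below it. RPL13 had 3346, 2161 and 2452 TPM and H3K4me3 of 77.4 and 81.6, with an H3K27ac-only peak of 4.62 and 6.32 at 2014 bases upstream. CCNE1, cyclin E1, had 303, 522 and 476 TPM and H3K4me3 of 28.1 and 35.8. HBZ, KRT3 and RPL13 belong to families with close copies, and how reads shared between copies were counted bears on their TPM.

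The 10 strongest peaks by mean fold enrichment at symbol genes with H3K4me3 were all cases of a wide partner in replicate 2. CDC42, a small GTPase of cell polarity, had 4.62 in replicate 1 and 70.9 in replicate 2, and HNRNPM, a splicing factor, had 3.79 and 59.4. OLFML3, HM13, SSR3, CHRAC1, UFC1, C3H1orf174, POGK and GIPC1 followed with 2.84 to 4.01 in replicate 1 and 37.6 to 50.3 in replicate 2. In replicate 1 all 10 lay between 2.84 and 4.62, near the median of 3.89.

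With the 105 peaks of such partners left out, a choice made after the values were seen, other genes led. KRT80, an epithelial keratin, had the strongest H3K27ac-only peak of the symbol genes, with 12.3 and 6.95, in an intron 1988 bases from the start on scaffold 109 (3695359 to 3696219). Its RNA was 66.2, 158 and 99.7 TPM and its H3K4me3 at the start 7.02 and 10.9. GASK1A, a kinase family protein of the Golgi, followed with 9.12 and 7.59 and 0.615, 0.927 and 0.466 TPM. HCAR1, the lactate receptor, had 5.93 and 9.17 and no count in any library. Its H3K27ac-only peak lay beyond the gene's end, 2325 bases from the start. H3K4me3 at the HCAR1 start was called in replicate 2 alone, at 3.32.

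The remaining 7 were ANGPTL4, ABCD3, PXK, TMOD3, SP1, DPF2 and TMEM88B, with means of 6.31 to 6.996. All 7 peaks lay upstream of the start. ANGPTL4, an inhibitor of lipoprotein lipase, had 6.41 and 7.59 at 1047 bases upstream, H3K4me3 of 39.2 and 41.0, and 8.23, 9.74 and 8.41 TPM. SP1, a general transcription factor, had 7.62 and 5.56 at 2921 bases upstream and 25.9, 26.1 and 27.6 TPM. DPF2, a subunit of the BAF chromatin remodeller, had 5.54 and 7.59 at 2678 bases upstream of a start with H3K4me3 of 48.9 and 87.8, and 180, 153 and 136 TPM.

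Most genes had a single such peak. Of 1410 genes, 1281 had 1, 125 had 2 and 4 had 3. The 4 were TNNT2 and, without H3K4me3 at the TSS, OAZ3, EPX and FFAR2. OAZ3, an antizyme of the testis in mouse and human, had peaks 431, 1353 and 2252 bases into the gene with replicate 1 values of 5.68, 4.32 and 3.76, and an H3K4me3 peak of 109 lay 1532 bases from its start.

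RNA was low at those 3 genes. OAZ3 had 2.50, 1.73 and 1.59 TPM. EPX, eosinophil peroxidase, had 0.0933, 0.680 and 0.104 TPM, and 2 of its 3 peaks shared a partner of 1013 bases in replicate 2. FFAR2, a receptor of short-chain fatty acids, had a peak on the start with 4.41 and 3.16 and RNA in FP2 alone, at 0.178 TPM. Among the 125 genes with 2 peaks, DENR, a translation factor, had 88.8, 105 and 107 TPM and the highest mean of those with a symbol.

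The share of genes with an H3K27ac-only peak near the start ranged from 0 to 12.9% between lists. Of 303 annotated genes in 12 lists of pathways and cell types, 10 had one (3.30%), against 5.88% of all genes with a symbol. Of 28 craniofacial signaling genes none did, while 27 had H3K4me3 at the TSS and all 28 were expressed. The lists of cartilage (19 genes), bone (13), immediate early genes (22) and HOX genes (29) had none either. None of these lists was tested, and the shares are a description.

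Skeletal muscle had the most, with 4 of 31 genes (12.9%): CASQ2 and TNNI1 without H3K4me3 at the TSS, and CKM and TNNT2 with it. PRRX1, a homeobox factor of facial mesenchyme, was the only one of 42 neural crest and mesenchyme genes, with 3.06 and 4.19 at 2930 bases upstream of an H3K4me3 peak of 35.7 and 79.8. Its RNA was 32.5, 57.1 and 27.3 TPM. TP63 was the only one of 26 epidermal genes, and RPL13 of 48 ribosomal protein genes. SCEL, LY6D, KRTDAP, KRT3, DMKN, KRT80 and TMPRSS13, named above as genes of epithelia or epidermis, were not in the epidermal list.

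CDH5, the cadherin of endothelium, stood for the blood vessel list of 17, with 5.54 and 3.16 in an intron 1335 bases from the start. H3K4me3 at the CDH5 start was called in replicate 2 alone, at 3.39. LYZ, lysozyme, was found among 16 blood genes and CNGA2, the channel of olfactory neurons, among 19 neuronal genes. HBZ and EPX, described above, were not in the list of blood genes. LYZ had 3.03 and 3.36 at 913 bases into the gene and 12.2, 8.11 and 14.2 TPM. CNGA2 had 4.00 and 4.11, the second in a partner that shared bases with H3K4me3, and 8.40, 24.8 and 13.4 TPM.

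Of the 34 annotated tissue markers 5 had an H3K27ac-only peak near the start, namely TP63, CDH5, CNGA2, MITF and CRYAA. This was 14.7%, above the 5.88% of genes with a symbol, in a small set of markers that was not tested. MITF, the factor of melanocytes, averaged 2.63 ± 0.339 TPM (SD, n = 3). CRYAA, the lens crystallin alpha A, averaged 3.50 ± 0.889 TPM (SD, n = 3) and had no H3K4me3 at the TSS. With BFSP1 it was the second lens gene in that group, both at low levels.

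The values at the edges of the rule show how close the choice was. The weakest peak inside the limit on q had a -log10 q of 1.305 (fold enrichment 2.07), and the first outside, near CLTA, had 1.285 (2.35). By distance, the last inside was at PLA2G2D, 2995 bases from the start, and the first outside lay at 3001 bases. The closest H3K4me3 peak to a peak kept was 3 bases away, and a peak at CDC42EP1 that shared 5 bases was left out. In the split, TAC3 had H3K4me3 501 bases from its start and counted as without, and TRIM10 had it at 493 bases and counted as with.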

How the data were processed

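Both marks and RNA were measured in dunnart face tissue. For ChIP, the authors used cutadapt (1.9.1) for trimming, Bowtie2 (2.3.5.1) for alignment to their own assembly, SAMtools (1.9) and Picard (2.23.1) for filtering, and MACS2 (2.1.1) to call peaks per replicate. The deposited peak lists give the fold enrichment over input, a ratio, the -log10 p and q, and a display score that was not used. They end at p of 0.01, so peaks were kept at q under 0.05. The authors made the deposited counts per gene, unscaled, with Trimmomatic (0.39), HISAT2 (2.21) and featureCounts (Subread 2.0.1), on Tasmanian devil models moved with Liftoff (1.0). Of 21703 models, 14169 have a symbol; the counts of 11 genes on broken lines were not used.

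The TSS is the outermost exon end of a model. Distance runs from the peak edge, and the nearest TSS names the gene. TPM divides counts by exon length and scales each library to the same sum. Libraries of 16096971 to 17419099 counts limit the precision of low TPM values, and ChIP depth per sample was not used here. Overlap, distance and TPM were tested on simulated data. No test between groups of peaks or genes was made, since neither are replicates. Named are, in each of the 2 groups, the 10 symbol genes with the strongest peaks by mean fold enrichment and the 10 with the highest TPM, the 5 genes with most peaks, up to 3 genes of each list and the peaks at the limits of the rule; MITF, CRYAA and the other tissue markers come from a separate marker list. Some genes that these rules name are not reported here. The peaks, gene lists and markers were chosen with earlier results of these data known. Alternatives were other limits on q, overlap and distance, other definitions of H3K4me3 at the TSS, pools or libraries left out, TMM scaling and a count filter. Python (3.11.15) with numpy (2.4.6), pandas (2.3.3) and matplotlib (3.10.9) was used, and R (4.3.3) with edgeR (4.0.16) gave the TMM factors.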

Additional observations from a re-analysis of the deposited data

Results flagged for a closer look

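Deposited H3K4me3 entries at q over 0.05 were not used to choose the peaks, and 104 of the 1543 H3K27ac-only peaks near a TSS shared a base with such an entry (6.74%), against 1847 of 31658 H3K27ac-only peaks farther away (5.83%). They were 52 at genes without H3K4me3 at the TSS and 52 at genes with it, and include those of ALDH3A1 and HBZ. These entries are H3K4me3 signal below the limit set here.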

How the results depend on the processing

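The count of H3K27ac-only peaks near a TSS (1543), of those without H3K4me3 at the TSS (801), and the median TPM of genes without (0.0609) and with H3K4me3 (7.29) stayed within 1.5 times or within the spread between libraries under q of 0.01, 50% of both lengths, all deposited H3K4me3 entries, summit distance and TMM scaling. Both medians were taken over the mean TPM of each gene. By library, the median without H3K4me3 was 0.0231, 0 and 0 TPM in FP1, FP2 and FP3. A limit of 1 kb gave 566 and 478 peaks and 0.0779 and 0.914 TPM. Genes with a symbol gave 930 and 360 peaks and 0.564 and 12.9 TPM. With a pool left out, which drops the need for a partner, the counts ranged from 3874 to 4228 and from 2008 to 2279. With a pool or an RNA library left out, medians ranged from 0.0444 to 0.0593 TPM without and from 6.74 to 9.58 TPM with H3K4me3. With a pool alone left out, medians ranged from 0.0473 to 0.0593 and from 8.77 to 9.58 TPM. H3K4me3 that had to cover the TSS gave 9.29 TPM with it, H3K4me3 within 3 kb gave 3.82 TPM, and H3K4me3 in both replicates gave 0.0786 TPM without and 9.81 TPM with it. Genes with at least 10 counts had 2.74 and 13.9 TPM. In these settings the cause was not tested beyond the change in genes counted. In each of these settings genes with H3K4me3 had the higher median. The share of peaks downstream of the TSS, 49.8%, was 61.1% at 1 kb, 51.0% at q of 0.01, 50.1% with all H3K4me3 entries, and under 50% in the other planned settings. The median space to the nearest H3K4me3 peak, 776.5 bases at genes with H3K4me3 at the TSS, was 435 bases at 1 kb. It was 1020 bases with H3K4me3 called in both replicates, and between 758 and 883.5 bases in the other planned settings. Leaving out peaks whose replicate 2 partner shared bases with H3K4me3, chosen after seeing the data, gave 1420 and 783 peaks and 0.0619 and 7.29 TPM. No paired analysis was possible because no comparison between groups of samples was made. Peaks near the limit on q and genes under 1 TPM are bounded by ChIP and RNA depth.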
